A study of Mus musculus with 7 samples.

Results

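The collagen chain genes are those whose symbol in the array annotation is Col, a type number, the letter a and a chain number. By this rule 42 of the 18194 genes with a probe set of their own were chain genes, and 82 probe sets measured them. Of the 42 chains, 11 form fibrils, 6 form the type IV network of basement membranes and 25 belong to other types. The rule reads the symbol and no measured value, and 27 chains had more than 1 probe set. Each chain is given by the probe set that had its highest mean log2 signal. Levels were compared between arrays for 1 chain at a time and not between chains, since probe sets differ in how bright they are.

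The series measured RNA on 7 Affymetrix mouse expression arrays, 1 for each group. The purpose of the study was to follow cells from the undifferentiated state into the germ layers, with adult tissues beside them. The differentiated groups were ectoderm (Ect), endoderm (End) and paraxial mesoderm (Pme), each obtained in culture from SK7. Adult Brain, Liver and Sk_muscle (skeletal muscle) were taken from male ICR (CD-1) mice older than 9 weeks. The undifferentiated group, SK7_ESC, was the same line before differentiation. SK7 is 1 male ES cell line with a GFP reporter transgene under the Pdx1 promoter, which all 4 cultured groups therefore carried. No further treatment is named for any group, and the labels give ICR as the strain of all 7. How many cultures or animals stood behind an array is not stated in the sources used here. With 1 array per group no difference has a replicate check, and no p-value can be given: every fold below compares 2 arrays. A signal of 50 was taken as background, and a chain was called higher or lower at a ratio of at least 2 after signals under 50 were raised to 50. Where the dimmer signal was under 50 the fold is a lower bound and is written as at least that fold.

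Collagens are secreted or membrane proteins whose chains wind into a triple helix, and each chain comes from its own gene. Fibrillar types give connective tissue its tensile strength, type IV forms the sheet under epithelia and around muscle and vessels, type VI forms beaded filaments around cells, and smaller types attach to fibrils or sit in membranes. Many types are heterotrimers, so a cell needs the chains of a type together, and type IV genes lie as head-to-head pairs with a shared control region. Mesenchymal cells such as fibroblasts are the main source of fibrillar collagen, and parietal endoderm of the early embryo is known for making type IV.

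Promoters are shown for Col1a2 and Col3a1 of types I and III, both called higher in Pme than in SK7_ESC. They are also shown for the X-linked type IV pair, Col4a5 and Col4a6, both called higher in Ect and Pme. They were read from the RefSeq table of GRCm38.p6, in which 33 of the 42 chains had a window, and those of Col1a2 and Col3a1 end at the base before the gene's start. Capitals mark matches on either strand to CCAAT (the CCAAT box), to TATAAA (the TATA box) or to GGGCGG (the GC box).
Col1a2, chr6:4505368-4505617, + strand: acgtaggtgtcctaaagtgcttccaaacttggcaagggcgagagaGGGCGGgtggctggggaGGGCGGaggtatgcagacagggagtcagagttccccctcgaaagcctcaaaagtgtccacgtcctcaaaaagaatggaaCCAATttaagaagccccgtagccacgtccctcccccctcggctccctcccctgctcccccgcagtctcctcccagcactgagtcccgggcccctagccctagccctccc
Col3a1, chr1:45311288-45311537, + strand: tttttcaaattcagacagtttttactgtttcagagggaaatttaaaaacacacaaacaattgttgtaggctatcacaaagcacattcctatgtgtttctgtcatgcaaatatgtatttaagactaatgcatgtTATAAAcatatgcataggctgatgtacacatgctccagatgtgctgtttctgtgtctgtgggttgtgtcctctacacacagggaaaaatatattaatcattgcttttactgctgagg
Col4a5, chrX:141475169-141475369, + strand: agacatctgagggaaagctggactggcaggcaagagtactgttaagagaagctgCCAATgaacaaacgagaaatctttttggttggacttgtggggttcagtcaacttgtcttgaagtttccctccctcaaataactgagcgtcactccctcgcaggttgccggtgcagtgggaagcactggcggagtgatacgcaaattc
Col4a6, chrX:141474096-141474326, - strand: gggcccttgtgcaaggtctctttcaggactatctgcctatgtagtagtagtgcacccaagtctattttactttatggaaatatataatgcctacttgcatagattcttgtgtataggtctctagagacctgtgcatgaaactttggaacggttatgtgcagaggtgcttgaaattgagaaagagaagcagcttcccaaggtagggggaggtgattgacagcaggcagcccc
Col1a2 held CCAAT 109 to 105 bases before its start and GGGCGG at 205 to 200 and at 188 to 183. Col3a1 held TATAAA at 117 to 112, and Col4a5 held CCAAT at 196 to 192. The printed stretch of Col4a6 held none of these letters. In windows of 250 bases, CCAAT or its reverse ATTGG was present in 13 of the 33 chains and in 33.8% of all 32851 windows, and TATAAA or TTTATA in 5 of the 33 and in 12.4% of all. GGGCGG or CCGCCC was present in 20 of the 33 chains and in 32.7% of all windows. Col4a5 and Col4a6 were among these 20, with matches that reach into bases left out of their printed stretches. These matches describe the letters and are not binding sites. The starts of Col4a5 and Col4a6 lay 1343 bases apart on opposite strands. Those of Col4a1 and Col4a2 lay 21 bases apart, also on opposite strands, so their promoter is not printed, since it runs into the transcript of the partner. The stretches of Col4a5 and Col4a6 end earlier, leaving out the 49 bases nearest the start of Col4a5 and the 19 nearest that of Col4a6, where other transcripts of these genes are annotated.

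The marker lists went with the labels in part, with exceptions in each of the 3 layers. The bearing of these exceptions on the collagen values was not tested. The 8 pluripotency markers were all above background in SK7_ESC. None of them was above it in Ect or Pme, but 3 were in End, where Nanog, a core factor of ES cells, read 299.5 in End and 1533 in SK7_ESC and the list summed to 1251 in End and 17113 in SK7_ESC. Of 8 neural markers 6 were higher in Ect than in SK7_ESC, and all 8 markers of definitive endoderm were higher in End. Of the neural list, Pax6 was under background in Ect, at 30.5, and Nes missed the call there, at 76.5. Of the endoderm list, Cxcr4 was higher in Ect and Pme too, at 781.4 in Ect, 165.6 in Pme and 7.0 in SK7_ESC. Of 12 mesenchyme markers 6 were higher in Pme, led by Snai2 (2139 in Pme, 49.2 in SK7_ESC) and Cdh11 (2208 in Pme, 47.9 in SK7_ESC). The paraxial mesoderm factor Meox1 was under background in Pme, at 16.0. Tcf15, another such factor, read 124.7 in Ect, 29.1 in Pme and 110.8 in SK7_ESC, and was called lower in Pme than in SK7_ESC. Each adult tissue was at least 2-fold over both others in its own markers, in 8 of 8 for skeletal muscle, 7 of 7 for hepatocytes and 6 of 7 for neurons and glia. The number of arrays limits the precision. Between 7824 and 9086 genes were above background in an array.

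A minority of chains could be seen in any array. Above background were 16 of 42 chains in Ect, where 47.2% of all genes were, 13 in End (45.6% of all genes) and 16 in Pme (47.4%). Among the adult tissues the counts were 5 in Brain (49.9% of all genes), 10 in Liver (43.0%) and 14 in Sk_muscle (43.3%). SK7_ESC had 12 (44.4%). In at least 1 array 25 of the 42 chains were above background, 59.5% against 68.6% of all genes. Only Col4a1 and Col4a2 were above background in all 7 arrays. The share of chains above background lay under that of all genes in each array, and it was lowest in Brain, at 11.9%.

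The 17 chains under background in every array were Col11a2 and Col24a1 of the fibrillar types, Col4a3 and Col4a4 of type IV, and Col6a4, Col6a5, Col7a1, Col8a2, Col9a2, Col10a1, Col12a1, Col13a1, Col15a1, Col17a1, Col20a1, Col22a1 and Col26a1. Among them are Col10a1 of hypertrophic cartilage, Col7a1 and Col17a1 of skin, and Col4a3 and Col4a4 of the glomerulus. They give no fold in any comparison. The brightest of their signals was 48.8, that of Col13a1 in Pme. Col22a1, a chain of the junction of muscle and tendon, read 52.1 in Sk_muscle with a probe set other than its main one.

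Of the 25 chains above background somewhere, 9 were brightest in Pme and 7 in Sk_muscle. Among all 12481 genes that some array showed above background, 8.24% were brightest in Pme and 18.1% in Sk_muscle. Liver was brightest for 3 chains, beside 17.0% of these genes. Ect, End and Brain were brightest for 2 chains each, beside 11.9% of these genes in Ect, 8.23% in End and 21.5% in Brain, and SK7_ESC for 0, beside 15.0%.

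**Figure D1:**
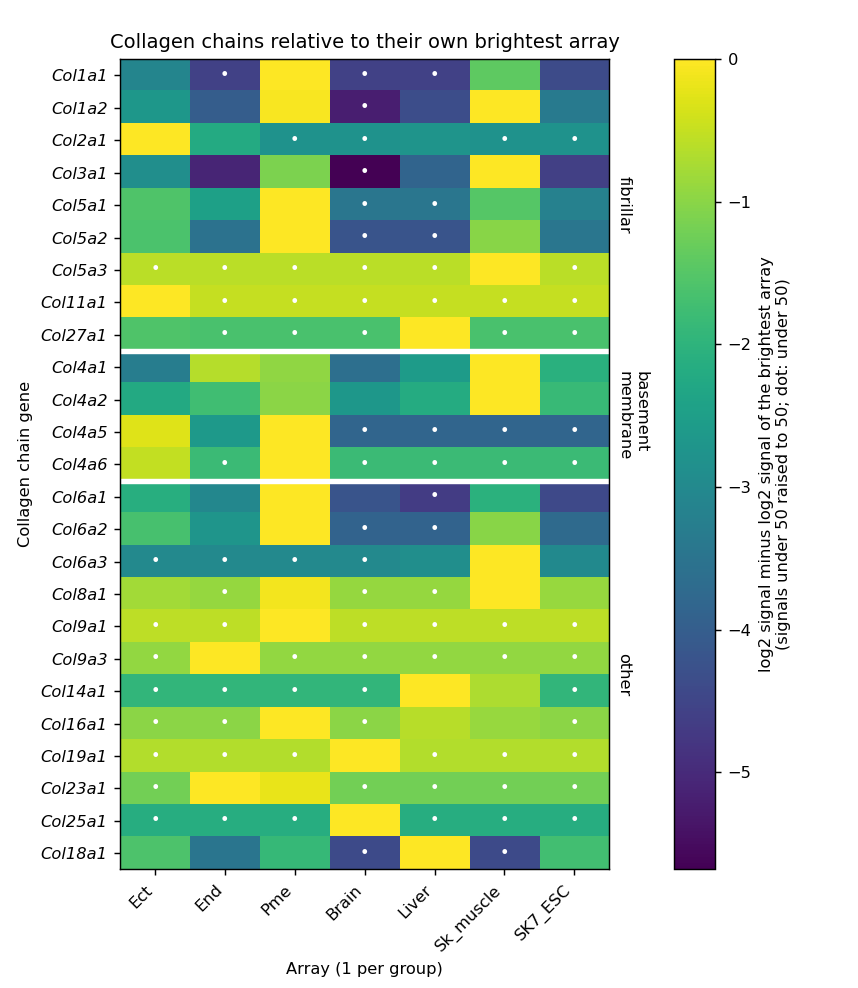
Signal of each of the 25 chains above background in at least 1 array (rows, by class) in the 7 arrays (columns, 1 per group), as the log2 difference from the chain's own brightest array after signals under 50 were raised to 50. White dots mark signals under 50. The Pme and Sk_muscle columns hold 16 of the 25 brightest cells, and the Brain column has 20 dots.

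Against SK7_ESC, the share of chains called higher lay above that of all genes in all 3 layers and was largest in Pme and Ect. In Pme 11 of 42 chains (26.2%) were higher, where 6.75% of all genes were, and 0 were lower, where 4.55% of all genes were. In Ect 9 chains (21.4%) were higher and 1 was lower, beside 6.63% and 4.89% of all genes. In End 4 chains (9.52%) were higher and 1 was lower, beside 4.89% and 3.81% of all genes. The share in End did not stay above that of genes at a background of 100, where 1 chain (2.38%) was higher beside 3.12% of genes, or at a ratio of at least 3, where 0 chains were, beside 2.09%. The median log2 ratio over all 42 chains was 0.0 in each of the 3 layers, as it was over all genes, since 25 or 26 chains were under background in both arrays. These 3 comparisons share the SK7_ESC array, so a low or high signal there enters all of them.

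**Figure D2:**
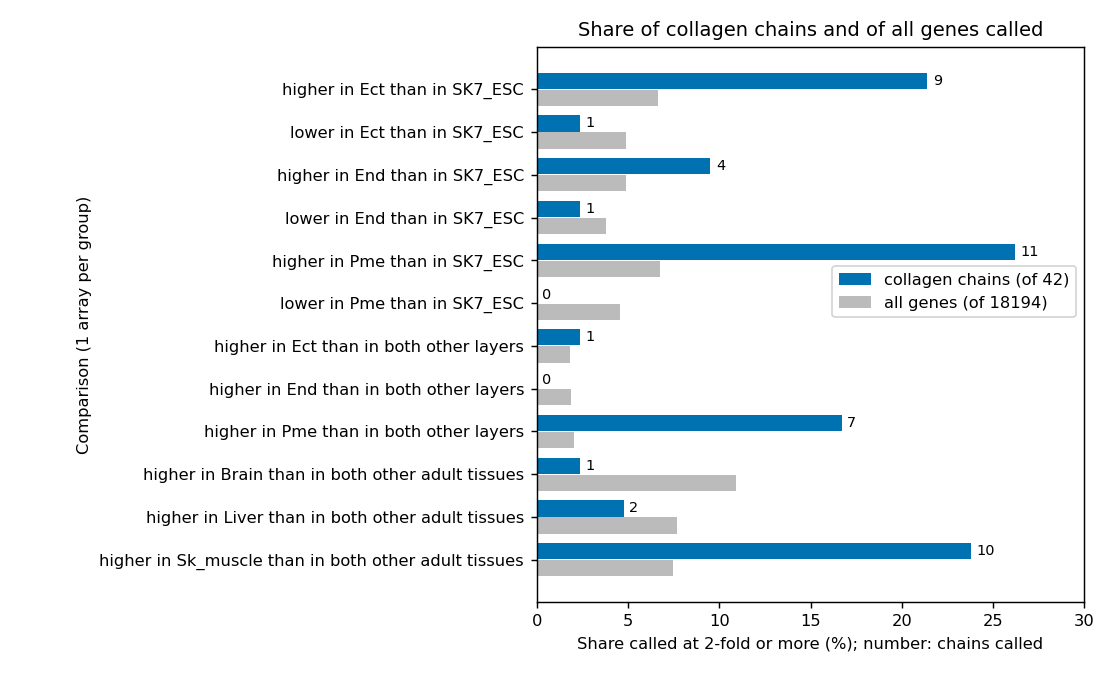
Share of the 42 chains (blue) and of all 18194 genes (grey) called at 2-fold or more in each of the 12 comparisons, in percent, with the number of chains beside each blue bar. The blue bar exceeds the grey one most for chains higher in Pme or Ect than in SK7_ESC, higher in Pme than in both other layers and higher in Sk_muscle than in both other adult tissues.

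Among the fibrillar chains, Col1a1, Col3a1, Col5a1 and Col5a2 were higher in Pme and in Ect than in SK7_ESC. Col1a1 encodes the chain that makes up most of type I collagen of bone, skin and tendon. It read 142 in Ect, 15.7 in End, 1204 in Pme, 9.5 in Brain, 1.5 in Liver, 456 in Sk_muscle and 57.7 in SK7_ESC. It was thus bright in Pme and Sk_muscle and near background in the ES cells, and against SK7_ESC it was 20.9-fold higher in Pme and 2.45-fold higher in Ect, where the geometric mean of its probe sets gave 1.79-fold and no call. Its partner Col1a2 read 289 in Ect, 115 in End, 1773 in Pme, 41.5 in Brain, 91.3 in Liver, 1848 in Sk_muscle and 179.5 in SK7_ESC. Col1a2 was 9.88-fold higher in Pme than in SK7_ESC and missed the call in Ect, at 1.61-fold.

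Col3a1, the collagen of vessels and other stretchable tissue, read 349 in Ect, 75.7 in End, 1182 in Pme, 23.9 in Brain, 179 in Liver, 2567 in Sk_muscle and 105 in SK7_ESC. Against SK7_ESC it was 11.2-fold higher in Pme and 3.32-fold higher in Ect, and in End the ratio was 0.72. Type V chains start type I fibrils and limit their width. Col5a1 read 185 in Ect, 101 in End, 549 in Pme, 16.1 in Brain, 41.7 in Liver, 193 in Sk_muscle and 60.1 in SK7_ESC, and Col5a2 read 299.9 in Ect, 78.6 in End, 918 in Pme, 12.3 in Brain, 11.7 in Liver, 459 in Sk_muscle and 84.5 in SK7_ESC. In Pme Col5a1 was 9.14-fold and Col5a2 10.9-fold higher than in SK7_ESC, and in Ect Col5a1 was 3.08-fold and Col5a2 3.55-fold higher. In Ect the call of Col5a1 was lost with the geometric mean of its probe sets, at 1.87-fold, and at a background of 100, at 1.85-fold. Col5a3, the alternative type V chain, was above background only in Sk_muscle, at 75.3.

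Among the fibrillar chains of cartilage, Col2a1 did not go with type I. Col2a1, the collagen of cartilage and notochord, read 343 in Ect, 74.0 in End, 38.4 in Pme, 0.6 in Brain, 51.6 in Liver, 8.1 in Sk_muscle and 20 in SK7_ESC. Ect was therefore the array in which it stood out, at least 6.87-fold higher than in SK7_ESC, and in Pme it was under background. Col11a1, which starts cartilage fibrils, was above background only in Ect, at 71.1 against 10.7 in SK7_ESC, at least 1.42-fold and so not called. Of 9 cartilage markers 1 was higher in Ect than in SK7_ESC: Sox9, a regulator of Col2a1, read 100.0 in Ect and 6.0 in SK7_ESC, while Acan, the cartilage proteoglycan, read 14.0 in Ect and 28.6 in SK7_ESC. The list summed to 224 in Ect, 188 in Pme and 85.5 in SK7_ESC, with 8 of its 9 genes under background in Ect, and its part in the result was not tested. Col27a1 read 51.8 in Ect, 44 in End, 47.3 in Pme, 39.9 in Brain, 154 in Liver, 6.2 in Sk_muscle and 18.4 in SK7_ESC, above background in Ect and Liver only.

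In type IV, the ubiquitous pair and the X-linked pair differed. Col4a1 read 115 in Ect, 712 in End, 575 in Pme, 90.3 in Brain, 189 in Liver, 1109 in Sk_muscle and 263 in SK7_ESC. Against SK7_ESC it was 2.28-fold lower in Ect, 2.70-fold higher in End and, in Pme, 2.18-fold higher, a call that was lost with median scaling, at 1.85-fold, and with the geometric mean of its probe sets, at 1.87-fold. Its head-to-head partner Col4a2 read 102 in Ect, 143 in End, 242 in Pme, 75.2 in Brain, 105 in Liver, 479.7 in Sk_muscle and 133.5 in SK7_ESC, with no call in any layer. In End, Col4a2 was at 1.07-fold of SK7_ESC, so that the log2 ratios of Col4a1 and Col4a2 lay 1.34 apart, while in Pme they lay 0.27 apart. A further probe set of Col4a1 read 64.7 in Ect, 230.7 in End, 191 in Pme and 119.5 in SK7_ESC, in the same order of arrays but with no call.

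Col4a5 and Col4a6 encode the chains that join in the basement membranes of smooth muscle and some epithelia. Col4a5 read 584.5 in Ect, 116.5 in End, 713 in Pme, 18.6 in Brain, 22.5 in Liver, 29.9 in Sk_muscle and 20.5 in SK7_ESC. Col4a6 read 121 in Ect, 49.5 in End, 174 in Pme, 14.1 in Brain, 6.6 in Liver, 22.3 in Sk_muscle and 20.2 in SK7_ESC. Both were thus seen in Ect and Pme and in none of the adult tissues. Col4a5 was at least 11.7-fold higher in Ect, at least 2.33-fold higher in End and at least 14.3-fold higher in Pme than in SK7_ESC, but with the geometric mean of its probe sets the ratio in End was 1.47 and not called. Col4a6 was at least 2.42-fold higher in Ect and at least 3.48-fold higher in Pme, and at a background of 100 its ratios of 1.21 in Ect and 1.74 in Pme were not called. All 7 samples were from males, which carry 1 copy of this X-linked pair.

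The chains of type VI were split. Col6a1 read 293 in Ect, 153.5 in End, 1267 in Pme, 68.4 in Brain, 34.9 in Liver, 306 in Sk_muscle and 58.7 in SK7_ESC. Col6a2 read 234 in Ect, 111 in End, 737 in Pme, 34.9 in Brain, 7.9 in Liver, 364 in Sk_muscle and 56.3 in SK7_ESC. Both were brightest in Pme, where Col6a1 was 21.6-fold and Col6a2 13.1-fold higher than in SK7_ESC, and both were higher in Ect, Col6a1 4.99-fold and Col6a2 4.15-fold. In End Col6a1 was 2.61-fold higher, a call lost at a background of 100 (1.53-fold), and Col6a2 missed the call at 1.98-fold. Col6a3, whose chain joins these in the heterotrimer, read 20.3 in Ect, 17.1 in End, 48.9 in Pme, 18.4 in Brain, 55 in Liver, 402 in Sk_muscle and 50.9 in SK7_ESC. Col6a3 was under background in all 3 layers and bright only in Sk_muscle. At a background of 20, Col6a3 was called higher in Pme than in both other layers, by at least 2.41-fold. Against SK7_ESC its ratio at that background was 0.399 in Ect and 0.393 in End. Its log2 ratio in Pme, a bound because its signal there was under background, lay at least 4.46 below that of Col6a1, and only 1 probe set measured it, so no further one can be set beside it. The alternative chains Col6a4 and Col6a5 were under background in every array.

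Of the other types, few chains were called in the layers. Col23a1, a transmembrane chain, read 16.3 in Ect, 116 in End, 102 in Pme, 24.3 in Brain, 1.0 in Liver, 9.7 in Sk_muscle and 7.1 in SK7_ESC, at least 2.32-fold higher in End and at least 2.04-fold higher in Pme, and with the geometric mean of its probe sets the ratios were 1.78 in End and 1.36 in Pme, neither called. A further probe set of it read 9.2 in Ect, 133 in End, 92.4 in Pme and 2.3 in SK7_ESC. Col18a1, a basement membrane zone chain that carries endostatin, read 351 in Ect, 94.7 in End, 290.1 in Pme, 14.7 in Brain, 1057.5 in Liver, 39.2 in Sk_muscle and 320.2 in SK7_ESC. End was the layer in which it was low, 3.38-fold lower than in SK7_ESC, and its other probe set was called lower there too. Col9a3, a cartilage chain that attaches to fibrils, was seen only in End, at 95.3 and with a further probe set at 69.9, against 7.0 in SK7_ESC. Its partner Col9a1 was seen only in Pme, at 74.1, against 11.6 in SK7_ESC, and there another probe set of Col9a1 read 229.9 in Pme and 6.1 in SK7_ESC. With the main probe sets both missed the call, Col9a3 at no less than 1.91-fold and Col9a1 at no less than 1.48-fold. The other probe set of Col9a1 was called higher in Pme than in SK7_ESC and than in both other layers. Col16a1, which attaches to fibrils, read 48.3 in Ect, 39.8 in End, 99.3 in Pme, 37.0 in Brain, 65.4 in Liver, 53.9 in Sk_muscle and 27.3 in SK7_ESC, and just missed the call in Pme, at no less than 1.99-fold. Col8a1, a chain of the sheets under endothelium, read 54 in Ect, 9.7 in End, 86.4 in Pme, 32.6 in Brain, 1.6 in Liver, 92.6 in Sk_muscle and 50.8 in SK7_ESC, with no call.

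**Figure D3:**
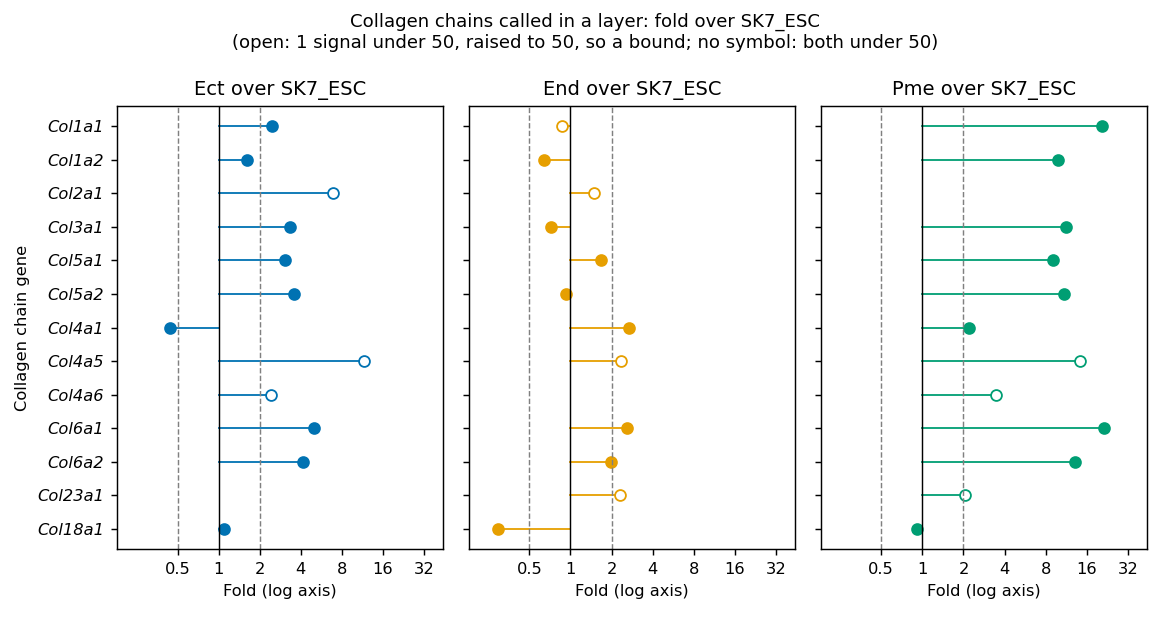
Fold of each of the 13 chains called in a layer over SK7_ESC, in Ect, End and Pme (log axis, 1 array per group). Filled points were measured in both arrays, open points are bounds with 1 signal under 50, chains with both signals under 50 have no point, and dashed lines stand at 2-fold higher and lower. The points of Pme reach 21.6-fold, no point of End reaches 3-fold higher, and Col4a1 falls left of 1 in Ect only.

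Between the layers themselves, Pme stood apart. In Pme 7 chains (16.7%) were higher than in both other layers, where 2.07% of all genes were: Col1a1, Col1a2, Col3a1, Col5a1, Col5a2, Col6a1 and Col6a2. Col1a1 was 8.50-fold higher in Pme than in Ect and at least 24.1-fold higher than in End. Col1a2 was 6.13-fold higher in Pme than in Ect and 15.4-fold higher than in End, and the other 5 lay between 2.96-fold and 4.33-fold over Ect and between 5.46-fold and 15.6-fold over End. In Ect 1 chain, Col2a1, was higher than in both other layers (1.82% of all genes), at 4.64-fold over End and at least 6.87-fold over Pme. In End 0 chains were (1.86% of all genes). Col4a1 was 6.17-fold higher in End than in Ect, but only 1.24-fold higher than in Pme.

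The mesenchyme markers summed to 1379 in Ect, 376 in End, 6573 in Pme and 423 in SK7_ESC, with 5 of 12 above background in Ect, 2 in End, 8 in Pme and 2 in SK7_ESC. Those of pericytes and smooth muscle summed to 915 in Ect, 629 in End, 4565 in Pme and 686 in SK7_ESC, with 4 of 8 higher in Pme than in SK7_ESC. Both lists were thus highest in the layer in which Col1a1, Col1a2, Col3a1, Col5a1, Col5a2, Col6a1 and Col6a2 were highest. The defining smooth muscle markers Myh11 and Cnn1, however, were under background in Pme, at 7.7 and 21.4. In Ect, Snai2 (182 in Ect, 49.2 in SK7_ESC) and Cdh11 (800.3 in Ect, 47.9 in SK7_ESC) were higher than in SK7_ESC. The part of such cells in the collagen signals was not tested. In bulk RNA, fewer cells of a type and less RNA in each of them cannot be told apart.

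Among the adult tissues, Sk_muscle was the one with most chains called higher. In Sk_muscle 10 chains (23.8%) were higher than in both Brain and Liver, where 7.47% of all genes were: Col1a1, Col1a2, Col3a1, Col5a1, Col5a2, Col4a1, Col4a2, Col6a1, Col6a2 and Col6a3. The call of Col5a1 was lost at a background of 100, at 1.93-fold, and with the geometric mean of its probe sets. Col3a1 was at least 51.3-fold higher in Sk_muscle than in Brain and 14.4-fold higher than in Liver. Col1a2 was at least 37.0-fold higher than in Brain and 20.2-fold higher than in Liver, and Col4a1, the chain of the sheet around each muscle fibre and vessel, was 12.3-fold higher than in Brain and 5.87-fold higher than in Liver. Col6a3 was at least 8.03-fold higher in Sk_muscle than in Brain and 7.30-fold higher than in Liver. Markers of endothelium were above background in 10 of 10 genes in Sk_muscle, 4 in Brain and 7 in Liver, and they summed to 2501 in Sk_muscle, 446 in Brain and 816 in Liver. Those of pericytes and smooth muscle summed to 8527 in Sk_muscle, 680.5 in Brain and 859 in Liver, with 6 of 8 genes above background in Sk_muscle, 2 in Brain and 2 in Liver. Rgs5, a pericyte gene, at 3072, and Des, which muscle fibres also make, at 2957, carried most of the sum in Sk_muscle. The part of these cells in the collagen signals was not tested.

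Liver and Brain were each marked by few chains. In Liver 2 chains were higher than in both other tissues (7.71% of all genes): Col18a1, at least 21.1-fold higher than in Brain and in Sk_muscle, and Col27a1, at least 3.09-fold higher than in each. The call of Col27a1 was lost with the geometric mean of its probe sets, at 1.87-fold. A further probe set of Col18a1 read 1681 in Liver, 17.5 in Brain and 22.6 in Sk_muscle. Col14a1, a chain of dense connective tissue that attaches to fibrils, read 193.5 in Liver, 10.7 in Brain and 120.1 in Sk_muscle. Of 6 hepatic stellate markers only 2 were above background in Liver: Colec11, at 628, and Reln, at 319.6, which read 474.8 in Brain. Lrat was under background in Liver, at 24.8. In Brain 1 chain was higher than in both other tissues (10.9% of all genes): Col25a1, a neuronal transmembrane chain found in amyloid plaques, read 3.3 in Ect, 3.0 in End, 14.7 in Pme, 219 in Brain, 8.3 in Liver, 9.1 in Sk_muscle and 3.0 in SK7_ESC. It was at least 4.38-fold higher than in Liver and in Sk_muscle, and with the geometric mean of its probe sets the ratio was 1.49 and not called. Col19a1, known from brain interneurons, was also seen in Brain only, at 79.0 with its main probe set and 145 with another.

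Partner chains were set side by side across the 7 arrays as Pearson's r of the log2 signals raised to 50. This is a description over 7 points that share 1 platform and scaling, 4 of them from 1 cell line, and chains under background in most arrays rest on few points. Col6a1 and Col6a2 had r = 0.98, Col5a1 and Col5a2 0.97, Col5a2 and Col1a1 0.96, and Col1a1 and Col1a2 0.95. Among 12479 genes, Col6a2 held rank 3 for likeness to Col6a1, and Col5a2 held rank 6 for Col5a1. Col4a5 and Col4a6 had r = 0.96, with 3 arrays above background for Col4a5 and 2 for Col4a6. Col4a1 and Col4a2 had 0.88, with Col4a2 at rank 17 for Col4a1 and Col4a1 at rank 99 for Col4a2. Col11a1 and Col2a1 had r = 0.98, but Col11a1 was above background in 1 array, and Col2a1 held only rank 142 for likeness to it. Col9a1 and Col9a3, each above background in 1 array, had r = -0.17. Col6a3, above background in 3 arrays and in 2 of them by little, had r = 0.21 with Col6a1 and 0.38 with Col6a2, at rank 4701 for likeness to Col6a1 and 2610 for likeness to Col6a2.

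**Figure D4:**
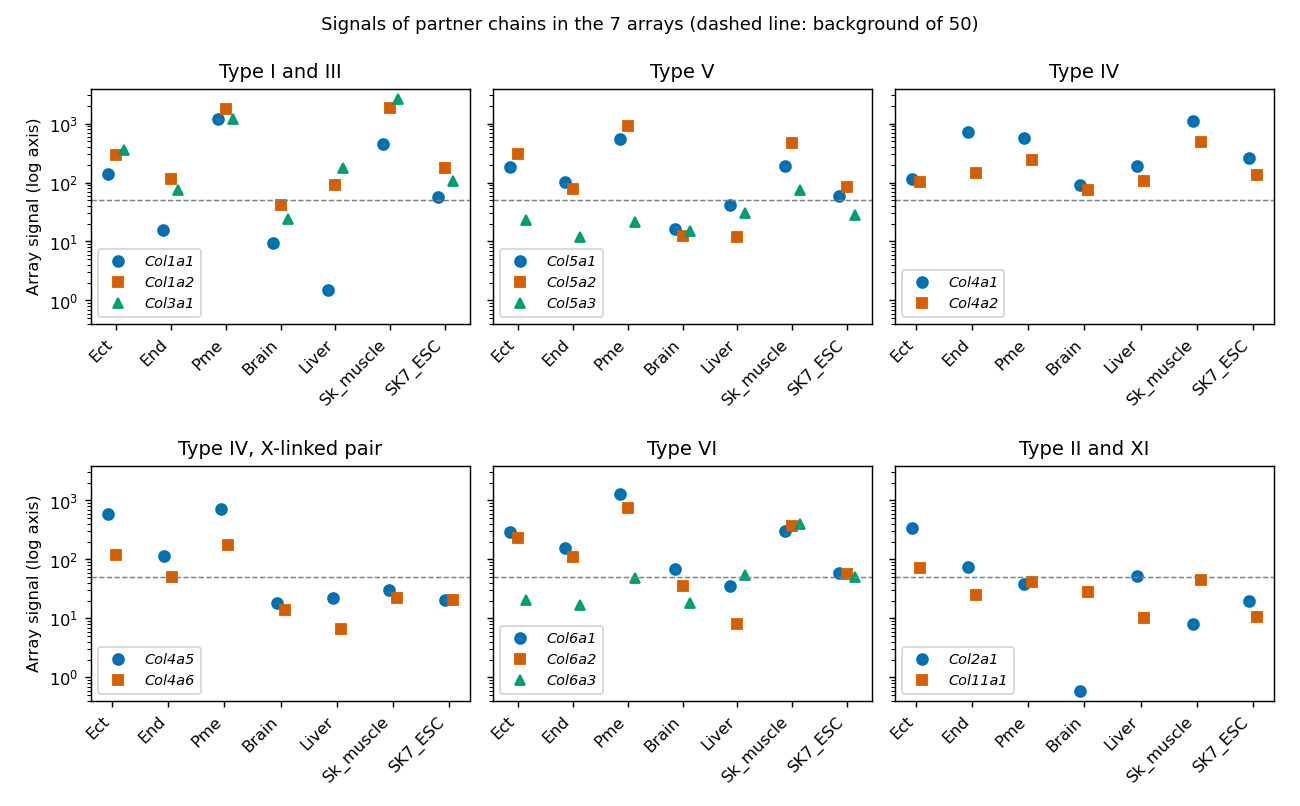
Array signal (log axis) of partner chains in the 7 arrays, 1 point per chain and array, with the background of 50 as a dashed line. Heights of different chains come from different probe sets and are not to be compared. Col6a3 lies under the line in the 3 layers while Col6a1 and Col6a2 lie above it, and Col5a3 is above the line in Sk_muscle only.

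Genes that modify, fold, process and bind collagen were described by lists of their own, whose counts are to be read against the shares of all genes given above. Against SK7_ESC, Pme had 6.75% of all genes higher and 4.55% lower, Ect 6.63% and 4.89%, and End 4.89% and 3.81%. Of 15 genes of proline and lysine hydroxylation and related steps, 4 rose and 0 fell in Pme relative to SK7_ESC. In End 1 rose and 1 fell, and in Ect 0 rose and 1 fell. P4ha2, a catalytic subunit of prolyl hydroxylase, read 255 in Pme and 74.2 in SK7_ESC, 3.44-fold higher, and P3h4 4.09-fold higher. P4ha1, the other catalytic subunit, was higher in End, at 3.17-fold, and in Pme, at 2.18-fold. Crtap, of the prolyl 3-hydroxylase complex, was lower in Ect and End, at 131 in Ect, 151 in End and 324 in SK7_ESC.

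Of 11 genes of folding and secretion, 3 rose and 1 fell in Pme. In End 2 rose and 2 fell, and in Ect 1 rose and 2 fell. Serpinh1, the collagen chaperone of the endoplasmic reticulum, read 585 in Ect, 1055 in End, 1928 in Pme and 512 in SK7_ESC, 3.76-fold higher in Pme and 2.06-fold higher in End. Fkbp7, a prolyl isomerase of the same compartment, had the highest fold in Pme, at least 6.41, and its relative Fkbp14 was higher in all 3 layers, 2.45-fold in Ect, 3.23-fold in End and 3.85-fold in Pme. Tmem38b, a channel of the endoplasmic reticulum, was lower in all 3, at 55.4 in Ect, 35.5 in End, 89.3 in Pme and 194 in SK7_ESC. Sec24d, of the coat of secretory vesicles, was lower in Ect and End, at 76.7 in Ect, 111 in End, 220 in Pme and 269 in SK7_ESC.

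Of 10 genes of propeptide removal and crosslinking, 1 was higher in Pme: Loxl1, a lysyl oxidase, at 289 in Pme and 62.9 in SK7_ESC. Here the ES cells were not low. Pcolce, the enhancer of C-propeptide removal, read 524 in Ect, 84.1 in End, 1746 in Pme and 1133 in SK7_ESC, and Lox, which crosslinks fibrils, read 61.6 in Ect, 29.4 in End, 243 in Pme and 137 in SK7_ESC. Both were lower in Ect and End than in SK7_ESC. In Pme 4 of the 10 genes were called higher than in both other layers, beside 2.07% of all genes.

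Of 12 fibril proteoglycans and matricellular proteins, 8 were higher in Pme, 4 in Ect and 1 in End, and 0 were lower in any layer. Among all genes, 6.75% were higher in Pme, 6.63% in Ect and 4.89% in End. Dcn, which coats type I fibrils, read 951 in Ect, 148 in End, 1766 in Pme and 21.9 in SK7_ESC, at least 35.3-fold higher in Pme. Bgn, its relative, was 18.1-fold higher in Pme and 3.54-fold higher in Ect. Ogn was at least 9.38-fold and Thbs1 6.66-fold higher in Pme. Of 11 genes of collagen breakdown and its inhibitors, 5 were higher in Pme, led by the gelatinase Mmp2 at 704 in Pme and 67.0 in SK7_ESC, 2 were higher in Ect and 1 in End, and 1 was lower in Ect and 1 in End. The inhibitor Timp3 was at least 8.55-fold and Timp2 4.21-fold higher in Pme. Timp1, an inhibitor too, was the gene lower in Ect and in End, at 55.2 in Ect, 49.7 in End, 206 in Pme and 339 in SK7_ESC. Of 9 collagen receptors, 2 were higher in Pme and 2 in Ect, and Ddr1, a receptor kinase for collagen, was 7.01-fold higher in Ect and 3.56-fold higher in Pme. Adgrg1, a receptor of type III, was at least 4.03-fold higher in Ect, and the integrin subunit Itgb1 2.67-fold higher in Pme.

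Partners of type IV in the basement membrane went in both directions. Of 13 genes, 2 rose and 5 fell in Ect relative to SK7_ESC, 5 rose and 3 fell in End, and 4 rose and 1 fell in Pme. Beside these counts stand the shares of all genes: Ect had 6.63% higher and 4.89% lower, End 4.89% and 3.81%, and Pme 6.75% and 4.55%. The laminin chain Lamb1 read 186 in Ect, 1601 in End, 823 in Pme and 601 in SK7_ESC, lower in Ect and higher in End as Col4a1 was. Nid2, a linker of laminin and type IV, read 91.0 in Ect, 192 in End, 268 in Pme and 484 in SK7_ESC. Pxdn, the peroxidase that crosslinks type IV, was higher in all 3 layers, at 403 in Ect, 819.7 in End, 752 in Pme and 127 in SK7_ESC. Lama1, a laminin alpha chain, was lower in all 3, at 97.5 in Ect, 18.5 in End, 62.9 in Pme and 198 in SK7_ESC. Lamc1 was lower in Ect, and Nid1 in Ect and End. Gpc3, a membrane proteoglycan, had the highest fold of the list, 35.0-fold higher in End. Markers of parietal and primitive endoderm summed to 733 in Ect, 1469 in End, 1233 in Pme and 567 in SK7_ESC, and the list did not move as one. In End, Gata4 and Gata6 were higher and Dab2 and Lama1 lower. Gata6 was higher in Pme too, Plat was higher in Ect and Pme, Dab2 and Lama1 were lower in Ect, and Lama1 was lower in Pme. Thbd, a parietal endoderm marker, was under background in all 3 layers. Their part in the Col4a1 signals was not tested.

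The calls of further probe sets of the chains can be set beside the main ones. Ect had 7 further probe sets of called chains above background in either array, End had 3 and Pme 11. Of these 3 made the same call in Ect, 2 in End and 9 in Pme, 0 made the opposite call, and the rest made none.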

How the data were processed

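RNA of 7 samples, 1 array each, was measured on Affymetrix mouse expression arrays. The labels name an RNeasy kit and the methods TRIzol. The deposited values are linear intensity values of 45101 probe sets, which the authors scaled globally so that the average signal of an array was 100. In each array the mean without the highest and lowest 2% of probe sets was 100.0. The sources used here do not give the summarisation algorithm.

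Symbols came from the platform annotation, in which 34958 probe sets have 1 symbol, 932 have several and 9211 are unnamed here. By Entrez identifier 34754 matched a RefSeq gene of GRCm38.p6, with 0 symbols changed. No collagen probe set had several symbols. Col28a1 and Col6a6 were not analysed here.

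A gene took the probe set of its highest mean log2 signal (signals under 1 raised to 1). Signals under 50 were raised to 50 and ratios called at 2 or more, with the brighter signal at 50 or above. Other backgrounds (20, 100), a ratio of 3, quantile normalization, median scaling, the geometric mean of probe sets and leaving out probe sets marked _s_ or _x_ were tried. The calling step was run on simulated signals of known ratio; this tests the code and not the calls. Every chain above background in at least 1 array was named, with all values of those called, and of each other list genes with the largest ratios and those that went against it, beside others named for their known role after their values were seen. The members and lists were chosen with earlier results of these data known. Python 3.11.15, numpy 2.4.6, pandas 2.3.3, scipy 1.17.1 and matplotlib 3.10.9 were used.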

Additional observations from a re-analysis of the deposited data

Results flagged for a closer look

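Col4a1, the ubiquitous chain of type IV, was the only collagen chain whose calls against SK7_ESC pointed in opposite directions in the layers. It was lower in Ect, by 2.28-fold, and higher in End, by 2.70-fold, and in Pme, by 2.18-fold. Of all 18194 genes 77 (0.423%) had opposite calls in the layers. With 1 array per group the difference between the layers was not tested. The lower call in Ect and the higher ones in End and Pme were those of the main probe set of Col4a1, and its further probe set made no call in any layer. With the geometric mean of both, the ratio was 0.487 in Ect and 2.28 in End, still called, and 1.87 in Pme, not called.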

How the results depend on the processing

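Of 84 counts of called chains recomputed under 7 alternatives, 68 stayed within 1.5 times the main count, and no called value changed its direction. With a background of 20, chains lower in Ect than in SK7_ESC numbered 2 (6.84% of all genes), higher in End 8 (7.0%), lower in End 4 (5.69%) and higher in Pme 18 (10.2%). At that background 1 chain was higher in End (2.62% of genes) and 11 in Pme (3.01%) than in both other layers, and 2 were higher in Brain (14.3%) and 4 in Liver (9.14%) than in both other adult tissues. With a background of 100, 1 chain was higher in End than in SK7_ESC (3.12% of genes) and 1 in Liver than in the other tissues (6.53%). With the geometric mean of probe sets the count was 2 in End (3.2% of genes) and 1 in Liver (6.52%), and 0 chains were higher in Brain (8.13%). That setting also put 8 chains higher in Pme than in both other layers (1.32% of genes). At a ratio of at least 3, 0 chains were lower in Ect (1.91% of genes) and 0 higher in End (2.09%) than in SK7_ESC. Median scaling put 1 chain, Col9a3 (2.19-fold over SK7_ESC), higher in End than in both other layers, and took the call of Col4a1 in Pme (1.85-fold). Under it the count in Pme was still 11 against SK7_ESC (5.35% of genes), and 8 against both other layers (1.9%). That scaling moved the median of all genes, as log2 over SK7_ESC, by -0.16 in Ect, -0.04 in End, -0.16 in Pme, -0.59 in Brain, -0.27 in Liver and -0.24 in Sk_muscle, and quantile normalization by -0.3 in Brain and -0.12 in Sk_muscle. Quantile normalization took the call of Col23a1 in Pme (1.87-fold). In Ect, the calls of Col1a1 (1.79-fold) and Col5a1 (1.87-fold) were lost with the geometric mean, as were those of Col4a1 (1.87-fold) and Col23a1 (1.36-fold) in Pme. At a background of 100 the calls of Col4a5 (ratio 1.17), Col6a1 (1.53) and Col23a1 (1.16) in End, of Col1a1 (1.42), Col5a1 (1.85) and Col4a6 (1.21) in Ect and of Col4a6 (1.74) and Col23a1 (1.02) in Pme were lost. The cause was not tested. No paired analysis was possible because each group had 1 array. Signals near 50 limit what these arrays can show: more chains passed at the lower background, and 25 or 26 of the 42 gave no fold in a layer.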
